A study of Mus musculus with 16 samples.

Results

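The mRNAs of 10 glycolytic enzymes (Gpi1, Pfkl, Aldoa, Tpi1, Gapdh, Pgk1, Pgam1, Eno1, Pkm and Ldha) were examined in RNA bisulfite sequencing data from mouse embryonic stem cells. The genes were taken by name, and every RefSeq mRNA reference of them that the long RNA fraction lists was kept. This gave 13 references of these 10 genes, out of 15330 references and 13275 genes listed in that fraction. The 6 libraries are 3 of Dnmt2-/- cells and 3 of wild-type cells, from a series of 16. All are of the J1 background, were grown on a primary mouse embryonic fibroblast feeder layer in serum with ESGRO, and were separated from the feeders by letting these attach to dishes. The RNA is the long fraction after rRNA depletion. Dnmt2, gene symbol Trdmt1, is a cytosine methyltransferase known for its tRNA substrates. The labels name no promoter, Cre or clone, and do not say whether replicates are separate cultures, so p-values measure the spread between these libraries, which may be technical.

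Glycolysis turns glucose into pyruvate in the cytosol, with a first phase that spends ATP and a second that gains it, and lactate dehydrogenase can then turn pyruvate into lactate while restoring the NAD+ that the pathway needs. Mouse embryonic stem cells are known for a high rate of glycolysis. Bisulfite deaminates plain cytosine to uracil but spares 5-methylcytosine. A site's methylation level is therefore read as its non-conversion, meaning the percentage of its reads that kept the cytosine. Incomplete conversion adds a background to that level.

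Summed over listed cytosines, where a read counts once per cytosine, coverage was 93517724 to 109992584 in Dnmt2-/- libraries and 37786723 to 143488903 in wild-type libraries, with wild type replicate 3 the shallowest. The Trdmt1 reference (NM_010067.4) had a scaled mean coverage of 1.30, 0.458 and 0.978 in Dnmt2-/- libraries, against 4.32, 3.47 and 2.93 in wild-type libraries. Past its position 142, the last one listed in any Dnmt2-/- library, 0 cytosines were listed in each of these libraries, against 102, 128 and 48 in the wild-type libraries. Stem cell markers were abundant as a sum: all 12 genes of the list were listed, and their summed scaled coverage was 2172 to 2901 in Dnmt2-/- and 1992 to 2331 in wild type. Dppa5a alone made 1279 to 1794 of it in Dnmt2-/- and 950 to 1245 in wild type. Single markers were low, with a mean of 6.70 for the higher Nanog reference. Esrrb was listed only in Dnmt2-/- replicate 1 and wild type replicate 2, at 2.34 and 1.68. Of 12 feeder fibroblast markers, Lum, Pdgfrb and Postn were not listed in any library, and the sum was 13.6 to 16.4 in Dnmt2-/- and 15.2 to 48.1 in wild type, with the highest value in wild type replicate 3. Of 8 endoderm and early lineage markers, Afp, Dab2, Eomes, Foxa2 and Sox17 were not listed, and the sum was 2.89 to 4.27 in Dnmt2-/- and 1.06 to 4.27 in wild type.

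Glycolytic mRNA levels were compared between genotypes first. Level here means scaled mean coverage: the mean number of reads per listed cytosine of a reference, scaled between libraries by TMM. Each read adds to the level at every listed cytosine it covers, so the level differs from a number of reads. Cytosines listed in no library do not enter the mean, so references covered over different stretches are not comparable per length. In bulk RNA, fewer cells of a type and less RNA per cell cannot be told apart. None of the 12 references with a mean level of 1 or more rose or fell in Dnmt2-/- cells by limma with Benjamini-Hochberg adjustment, where 0% of all 10949 tested references did. At an unadjusted p under 0.05 there was 1, the lower Aldoa reference, against 7.11% of all references. With 1 library left out that count was 0 to 4, and 0 glycolytic references passed after adjustment. It was 4 without Dnmt2-/- replicate 3, where 902 of all 10770 references were under 0.05. It was 0 without Dnmt2-/- replicate 1 (486 of all 10829) and without wild type replicate 2 (824 of all 10410). The edgeR quasi-likelihood test on rounded coverage also called 0, with 1 of the 12 under an unadjusted 0.05, against 385 of all 10949. The log2 differences, Dnmt2-/- minus wild type on the log2(level + 0.5) scale, were positive in 9 of 12 references, with a median of 0.24. Over all tested references the median was 0.03 and 55.1% were positive. Feeder markers went the other way, with negative differences in 9 of the 9 tested and a median of -0.67, none passing the test. Stem cell markers had a median of 0.18, again with none passing. Of their 12 tested references 4 had an unadjusted limma p under 0.05, against 7.11% of all. Among these, Klf2 was lower in Dnmt2-/- (-0.64), and Dppa5a (0.59), Tfcp2l1 (0.65) and Nanog (0.89) were higher. Without wild type replicate 3, the library with the highest feeder sum, the glycolytic median was 0.27 and that of all references -0.0063. The part of either list in the glycolytic differences was not tested.

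**Figure D1:**
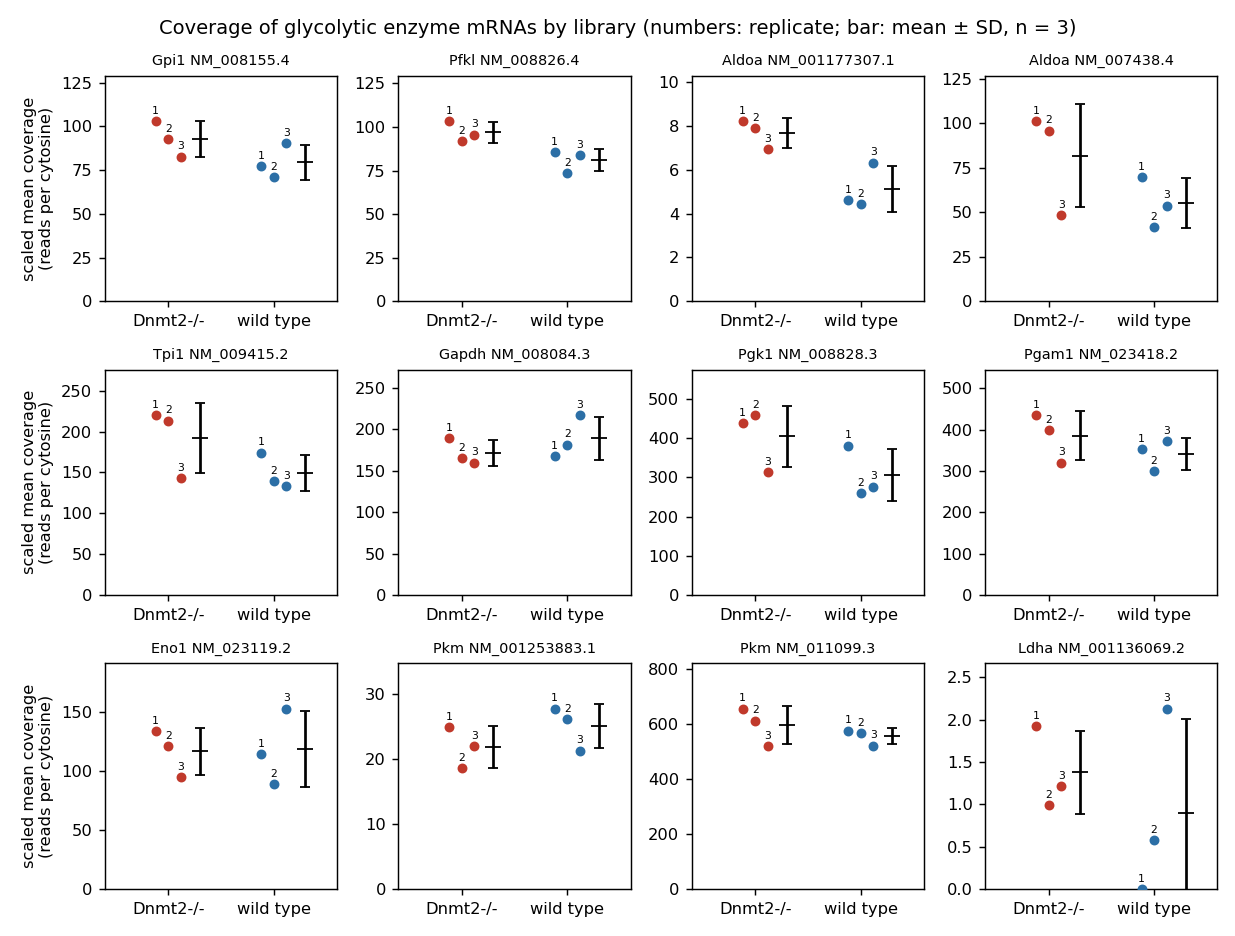
Scaled mean coverage per listed cytosine (reads, linear axes from 0, scaled per panel) of the 12 tested references, Dnmt2-/- libraries left of wild-type libraries, with points for libraries and bars for means ± SD (n = 3 each; the lower wild-type Ldha bar ends at the axis). The genotypes overlap in all but Pfkl and the lower Aldoa reference, whose 3 Dnmt2-/- points all lie above the 3 wild-type points.

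In the ATP-spending phase, the differences were positive for all 4 genes. Gpi1 (NM_008155.4), glucose-6-phosphate isomerase, which converts glucose 6-phosphate to fructose 6-phosphate, stood at 103, 92.6 and 82.7 reads per cytosine in Dnmt2-/- libraries, against 77.2, 70.8 and 90.5 in wild-type libraries. Wild type replicate 3 lay inside the Dnmt2-/- range, and the log2 difference of 0.22 (SE 0.143, limma adjusted p = 0.895) did not pass. Pfkl (NM_008826.4), the liver-type subunit of phosphofructokinase, which catalyses the committed step, stood at 103, 91.8 and 95.6 in Dnmt2-/- libraries, against 85.6, 73.7 and 83.9 in wild-type libraries. The groups did not overlap, yet the difference was small, 97.0 ± 5.97 against 81.1 ± 6.44 (SD, n = 3 each; log2 difference 0.26, SE 0.121, limma adjusted p = 0.757). Non-overlap with Dnmt2-/- higher was seen in 2 of the 12 glycolytic references and 6.13% of all tested references. Non-overlap with Dnmt2-/- lower was seen in 0 of the 12 and 5.98% of all.

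Aldoa, aldolase A, splits fructose 1,6-bisphosphate into 2 triose phosphates. Its main reference (NM_007438.4) had 101, 95.9 and 48.4 reads per cytosine in Dnmt2-/- libraries, against 70.0, 41.8 and 53.7 in wild-type libraries. Dnmt2-/- replicate 3 lay below wild type replicates 1 and 3, and the log2 difference of 0.52 had a standard error of 0.305 (limma adjusted p = 0.868). The second reference (NM_001177307.1) was at 8.22, 7.90 and 6.93 in Dnmt2-/- libraries, against 4.60, 4.44 and 6.32 in wild-type libraries. These groups did not overlap, and the log2 difference was 0.55 (SE 0.18, unadjusted p = 0.0157, limma adjusted p = 0.479). One more Aldoa reference (NM_001177308.1) was listed only in Dnmt2-/- replicate 1, at 14 cytosines and a level of 2.80, and was too low to test. The cytosines listed on the main reference, 133 of them, all lie between positions 38 and 405, so the values describe only that stretch.

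Tpi1 (NM_009415.2), triose-phosphate isomerase, which interconverts the triose phosphates, stood at 221, 213 and 143 in Dnmt2-/- libraries, against 174, 140 and 133 in wild-type libraries. Dnmt2-/- replicate 3 again lay among the wild-type values (log2 difference 0.35, SE 0.201, limma adjusted p = 0.868).

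In the ATP-gaining phase the differences were of mixed sign. Gapdh (NM_008084.3), which oxidises glyceraldehyde 3-phosphate, had 189, 165 and 160 reads per cytosine in Dnmt2-/- libraries, against 168, 181 and 217 in wild-type libraries. The groups overlapped, with a log2 difference of -0.14 (SE 0.148, limma adjusted p = 0.975). Only 70 Gapdh cytosines were listed, all between positions 170 and 410, and the many Gapdh pseudogenes of the mouse genome make its level uncertain. Pgk1 (NM_008828.3), phosphoglycerate kinase, the first ATP-forming enzyme of the pathway, had 439, 460 and 314 in Dnmt2-/- libraries, against 381, 261 and 276 in wild-type libraries. Dnmt2-/- replicates 1 and 2 were the highest of all, and replicate 3 lay below wild type replicate 1 (log2 difference 0.40, SE 0.215, limma adjusted p = 0.827).

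Pgam1 (NM_023418.2), phosphoglycerate mutase, stood at 436, 399 and 320 in Dnmt2-/- libraries, against 353, 299 and 372 in wild-type libraries (log2 difference 0.17, SE 0.173, limma adjusted p = 0.974). Eno1 (NM_023119.2), enolase, which makes phosphoenolpyruvate, had near-equal means of 117 ± 19.9 in Dnmt2-/- and 119 ± 32.3 in wild type (SD, n = 3 each), at 134, 122 and 94.9 in Dnmt2-/- libraries and 114, 89.0 and 153 in wild-type libraries. Its log2 difference of -0.0038 (SE 0.22, limma adjusted p = 0.999) turned positive with edgeR on rounded coverage (0.066), and also without Dnmt2-/- replicate 3 (0.13) and without wild type replicate 3 (0.19).

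Pkm, pyruvate kinase of muscle and most other tissues, makes pyruvate and is known to give M1 and M2 forms through mutually exclusive exons. Neither of its references is annotated as one of these forms in the tables used. The higher one (NM_011099.3) led all 12 references, with 656, 612 and 518 reads per cytosine in Dnmt2-/- libraries, against 576, 568 and 521 in wild-type libraries (log2 difference 0.10, SE 0.161, limma adjusted p = 0.986). The lower one (NM_001253883.1) stood at 24.9, 18.6 and 22.0 in Dnmt2-/- libraries, against 27.8, 26.2 and 21.3 in wild-type libraries (log2 difference -0.20, SE 0.158, limma adjusted p = 0.957). Both overlapped between genotypes. Listed cytosines were limited to positions 1347 to 1706 of the higher reference and 1362 to 1674 of the lower one.

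Ldha, the lactate dehydrogenase A subunit, was listed only through NM_001136069.2 and at the floor of the data, with 1.93, 0.995 and 1.21 reads per cytosine in Dnmt2-/- libraries, against 0, 0.577 and 2.13 in wild-type libraries. No Ldha cytosine was listed in wild type replicate 1, which entered the fit at 0 (log2 difference 0.71, SE 0.738, limma adjusted p = 0.974). With 1 library left out the difference was 0.13 to 1.44. No other reference matched to Ldha was listed in these libraries. The values therefore describe only this reference, at 34 cytosines between positions 36 and 310, and not the Ldha mRNA as a whole.

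**Figure D2:**
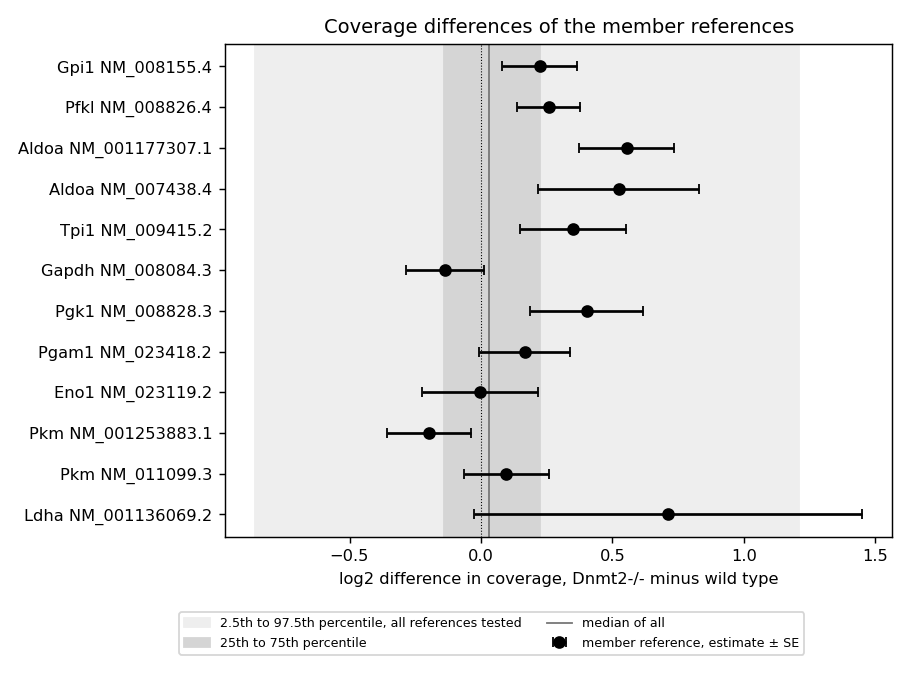
Log2 difference in scaled coverage, Dnmt2-/- minus wild type, of each glycolytic reference in pathway order (points, bars ± SE), with the range of all 10949 tested references shaded. The 9 positive and 3 negative estimates all lie inside the 2.5th to 97.5th percentile band, -0.86 to 1.21, and the estimate nearest 0, Eno1, changed sign with edgeR.

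Across the pathway the level of the mRNAs spanned a wide range. The higher Pkm reference had a mean of 575 reads per cytosine over the 6 libraries, rank 67 of 10949, and its lowest library exceeded the highest library of every other glycolytic reference. Pgam1 (363, rank 93) and Pgk1 (355, rank 94) followed and overlapped each other. Gapdh (180) and Tpi1 (171) overlapped too, as did Eno1 (118), Pfkl (89.0), Gpi1 (86.1) and the main Aldoa reference (68.5), neighbour by neighbour. The lower Pkm reference (23.5), the lower Aldoa reference (6.40) and Ldha (1.14) came last, each below the one before it in every library. The order and the ranks are descriptions, since references are listed over different stretches and Ldha only through 1 low reference. The higher Pkm reference was averaged over 115 cytosines at positions 1347 to 1706, and Pgam1 over 446 at positions 53 to 1828.

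Where coverage ran along most of a reference, the shape differed between genes and overlapped between genotypes. With the listed span cut into 3 equal parts, the last part of Pfkl had 0.114, 0.116 and 0.0627 times the coverage of the first part in Dnmt2-/- libraries, against 0.123, 0.137 and 0.104 in wild-type libraries. Pfkl coverage was thus far lower toward its 3′ end in all 6 libraries, with overlapping groups (exact permutation test, two-sided p = 0.4). Pgk1 was even, with ratios of 1.09, 1.04 and 1.06 in Dnmt2-/- libraries and 1.07, 0.997 and 1.15 in wild-type libraries. Gpi1, Tpi1 and Pgam1 lay between, at 0.526 to 0.745 in Dnmt2-/- libraries and 0.598 to 0.732 in wild-type libraries. None of these 5 ratios differed between genotypes by the exact permutation test (two-sided p of 0.4 to 0.9, where 0.1 is the lowest attainable).

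Other parts of carbon metabolism were measured beside the members. Of 19 further glycolysis genes, 9 were tested through 11 references. By limma 0 passed in either direction, with a median log2 difference of 0.30. At an unadjusted limma p under 0.05 there were 2 (7.11% over all references). These were Ldhb and Aldoc (log2 difference 0.66, limma adjusted p = 0.544), both higher in Dnmt2-/-. By mean level the highest of the list were Ldhb, the other main lactate dehydrogenase subunit (NM_008492.3, 111, 91.5 and 116 in Dnmt2-/- libraries, against 82.3, 53.5 and 88.9 in wild-type libraries), and Hk2, hexokinase (47.4, 49.4 and 46.5, against 36.1, 35.7 and 45.8 in wild type). Pfkp, the platelet-type phosphofructokinase subunit (NM_019703.4), came next at 40.0, 39.3 and 21.1 in Dnmt2-/- libraries, against 33.5, 27.4 and 19.2 in wild-type libraries. Ldhb and Hk2 were higher in every Dnmt2-/- library than in any wild-type library, as were 6.13% of all references, while Pfkp overlapped, and none passed the adjusted test. Hk3, Pklr, Gapdhs and Pgk2, forms known from blood cells, liver or testis, were among those not listed in any library.

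Of 22 genes for glucose and lactate transport and regulation, 16 were tested through 18 references, with 0 passing and a median of 0.13. At an unadjusted limma p under 0.05 there were 2, against 7.11% of all references. These were Mycn and Slc16a3 (log2 difference 0.82, limma adjusted p = 0.37), both higher in Dnmt2-/-. The glucose transporter Slc2a3 stood at 227, 219 and 201 in Dnmt2-/- libraries, against 185, 177 and 201 in wild-type libraries, and the transporter Slc2a1 at 201, 180 and 171, against 174, 166 and 166 in wild type. Mycn, a transcription factor of the Myc family, stood at 106, 99.0 and 130 in Dnmt2-/- libraries, against 69.4, 54.7 and 88.7 in wild-type libraries, without overlap (limma adjusted p = 0.40). Such non-overlap with Dnmt2-/- higher was seen in 6.13% of all references. The pentose phosphate genes (7 of 7 tested, 8 references) had a median of 0.08, led by Tkt, transketolase, at 157, 146 and 127 in Dnmt2-/- libraries and 147, 107 and 153 in wild-type libraries. Taldo1 (104, 94.5 and 76.1, against 91.4, 77.5 and 87.2 in wild type) and Pgd (28.5, 26.3 and 37.3, against 24.6, 22.5 and 40.1 in wild type) followed, with all 3 overlapping.

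Pyruvate oxidation and the citric acid cycle (20 of 21 genes tested) had a median log2 difference of -0.0075, close to the 0.03 of all references. Its 3 most abundant mRNAs overlapped between genotypes, namely Mdh2 at 111, 101 and 101 in Dnmt2-/- libraries and 98.4, 80.9 and 113 in wild-type libraries, Sdhb at 98.0, 95.6 and 88.9, against 87.1, 75.2 and 91.5 in wild type, and Pdha1 at 76.9, 87.3 and 91.8, against 86.3, 58.9 and 78.9 in wild type. Of 8 gluconeogenesis genes, 3 were tested, all low, with a median of 0.05: G6pc3 stood at 2.68, 2.90 and 3.14 in Dnmt2-/- libraries and 1.90, 3.84 and 2.92 in wild-type libraries. Pck2 (2.02, 1.87 and 1.02, against 1.72, 3.22 and 0.815 in wild type) and Slc37a4 (1.29, 0.939 and 2.99, against 0.121, 2.06 and 0 in wild type) were lower still. In the pentose phosphate, citric acid cycle and gluconeogenesis lists 0 references passed by limma and 0 had an unadjusted p under 0.05.

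The median log2 level of the 10 member genes overlapped between genotypes, at 7.32, 7.15 and 6.87 in Dnmt2-/- libraries and 7.12, 6.81 and 7.16 in wild-type libraries. Among 1932 other references with a mean level of 20 or more, those most like it over the 6 libraries were Naa38 (Pearson r = 0.99), Yars, tyrosyl-tRNA synthetase (r = 0.99), and Rrm2, a ribonucleotide reductase subunit (r = 0.97). These values share libraries, depth and scaling, and are given as descriptions. Members differed in how closely they followed the median of the other members. The r was 0.92 for the main Aldoa reference and for Pgam1, 0.72 for Gpi1, 0.66 for Pfkl, 0.53 for Pgk1 and 0.52 for Gapdh. It was 0.40 for the higher Pkm reference, 0.29 for Tpi1, 0.24 for Eno1 and 0.088 for Ldha.

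Eno1 has a near-identical copy in the files, Eno1b (NM_001025388.1), so reads can be shared between them and both levels are uncertain. With an offset of 18 bases, 168 cytosines are listed at the same place in both references, 59.4% of those of Eno1 and 72.1% of those of Eno1b. Eno1b was the higher of the pair, at 793, 711 and 663 reads per cytosine in Dnmt2-/- libraries, against 666, 455 and 578 in wild-type libraries (log2 difference 0.36, SE 0.192, limma adjusted p = 0.823). The share of Eno1 in the sum of both levels was 14.5%, 14.6% and 12.5% in Dnmt2-/- libraries, against 14.6%, 16.4% and 20.9% in wild-type libraries. Eno1 is listed from its position 14 and Eno1b from its position 786, so the levels cover different stretches. The share is therefore no split of reads between the copies, and the part of the stretches in it was not tested. The shares of the genotypes did not overlap, 13.9% ± 1.16 against 17.3% ± 3.25 (SD, n = 3 each; exact permutation test, two-sided, with p = 0.1 as the lowest attainable, and 0.3 adjusted over 3 such shares). They nearly met, at 14.60% in Dnmt2-/- replicate 2 and 14.64% in wild type replicate 1. The highest share was that of wild type replicate 3, the shallowest library. For the lower Pkm reference the share was 3.56% ± 0.571 in Dnmt2-/- and 4.31% ± 0.347 in wild type (exact p = 0.2), and for the lower Aldoa reference 9.21% ± 2.87 and 8.77% ± 2.30 (exact p = 0.9). Added together, Eno1 and Eno1b gave a log2 difference of 0.29 (limma adjusted p = 0.884), a combination chosen after the data were seen.

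**Figure D3:**
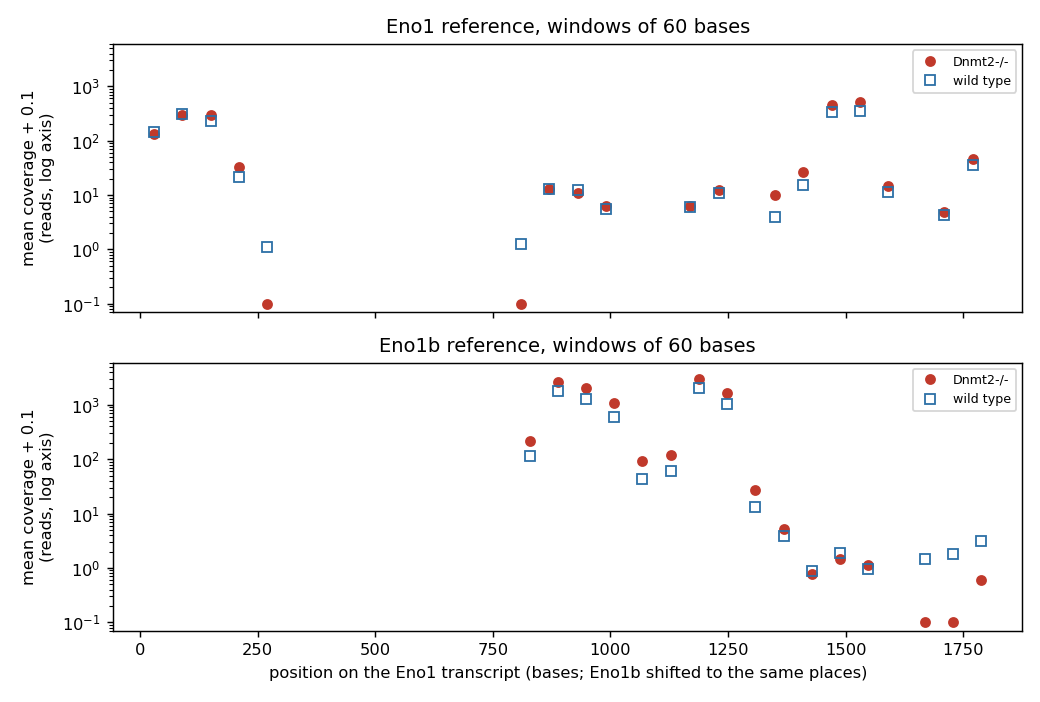
Mean coverage + 0.1 (reads, log axis) in 60-base windows along Eno1 and, shifted to the same places, its copy Eno1b, averaged over the 3 libraries of each genotype. The highest Eno1 window starts at position 1500, with 517 reads in Dnmt2-/- and 357 in wild type, and the highest Eno1b window at its position 1140, with 2953 and 2006 reads.

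Non-conversion was then examined at single cytosines. The glycolytic references list 3580 cytosines, of which 3124 had 10 reads in at least 1 library and 2628 in every library. Most were at background. Of the 2882 with 10 reads in all Dnmt2-/- libraries, 36 (1.25%) averaged over 5%, and of the 2629 in wild type, 41 (1.56%) did, against 4.39% and 3.09% of all cytosines. These shares are not matched for coverage, and few reads scatter a level both ways. At exactly 0% stood 126 of the 2882 and 125 of the 2629, against 352431 of 1365927 and 151192 of 765735 among all. The part of coverage in these shares was not tested. The median glycolytic cytosine stood at 1.62% in Dnmt2-/- and 1.42% in wild type, and the median of all cytosines at 1.52% and 1.30%. In single libraries 0.300% to 1.06% of glycolytic cytosines with 10 reads reached 10% or more, against 1.87% to 3.00% of all, again not matched for coverage. Among glycolytic cytosines this was rarely repeated: of the 96 that did so in any library, 84 did in 1 library, 9 in 2, 2 in 3 and 1 in 5. That last one was position 1386 of Eno1, which had been named beforehand by its level in these data. Repeats over all cytosines are not given here.

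Position 1386 of Eno1 (NM_023119.2, counted from the 5′ end of the reference) was not converted in nearly every read of both genotypes. In Dnmt2-/- libraries 38 of 38, 16 of 16 and 13 of 13 reads were non-converted, against 17 of 17, 14 of 14 and 2 of 3 in wild-type libraries. The level was 100% in 5 libraries and 66.7% in wild type replicate 3, where 3 reads allow an exact binomial 95% interval of 9.43% to 99.2%. The lower bounds of the 3 Dnmt2-/- intervals were 90.7%, 79.4% and 75.3%, against 80.5% and 76.8% in wild type replicates 1 and 2. Intervals cover counting error only, since reads of one molecule cannot be told from reads of several. Over each genotype this makes 67 of 67 reads in Dnmt2-/- and 33 of 34 in wild type. Reads pooled over libraries are no replicates, and the genotypes were not tested at this cytosine.

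No neighbour came near that level in any library with 10 or more reads. Pooled over the 34 neighbouring cytosines within 60 bases, to which the deeply covered ones farthest downstream add most reads, non-conversion was 2.24%, 0.806% and 0.951% in Dnmt2-/- libraries, against 1.88%, 0.829% and 1.01% in wild-type libraries. The neighbour with the highest value among those with 10 reads was position 1367, at 16.7%, 0% and 10% of 24, 7 and 10 reads in Dnmt2-/- libraries, against 0% of 10 and 9 reads in wild type replicates 1 and 2. At fewer reads the highest was position 1337, at 33.3% of 3 reads in wild type replicate 1. The cytosine at 1384, next but one, had 0 non-converted of 37, 16 and 13 reads in Dnmt2-/- libraries and 0 of 17 and 14 in wild type replicates 1 and 2. The cytosine at 1402, the next one downstream, had 0 of 15, 12 and 6 in Dnmt2-/- libraries and 0 of 9 and 9 in the same 2 wild-type libraries.

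**Figure D4:**
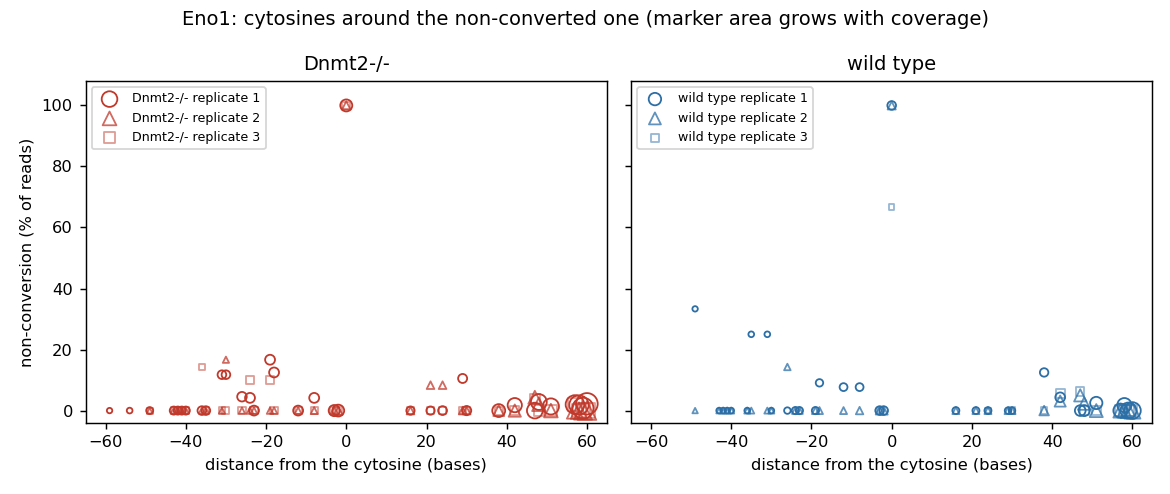
Non-conversion (%) of cytosines around Eno1 position 1386 by distance in bases, Dnmt2-/- left of wild type, with 1 marker per library and cytosine. The cytosine at distance 0 stands at 100% in 5 libraries and 66.7% in wild type replicate 3, while its 34 neighbours pool to 0.806% to 2.24%, and single neighbours reach 16.7% in Dnmt2-/- and, at 3 reads, 33.3% in wild type.

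The place in Eno1b that corresponds to position 1386, its position 1368, is not among the listed cytosines, although Eno1b cytosines on both sides of it are listed at 3 to 10 reads. Eno1b position 1359, which corresponds to an Eno1 place that is not listed, stood at 44.4%, 33.3% and 100% in Dnmt2-/- libraries and at 22.2% and 100% in wild type replicates 1 and 2, at 3 to 9 reads. The next values cover only the Eno1 stretch that corresponds to Eno1b positions 786 to 1760, the first and last listed there. Among Eno1 cytosines of that stretch with 30 reads over a genotype's libraries, 79 in Dnmt2-/- and 69 in wild type had a listed counterpart in Eno1b. Their medians were 1.30% in Dnmt2-/- and 1.09% in wild type. Those without a counterpart had 2.04% (31) and 2.08% (28). The base at these places in either transcript was not analysed here, and the part of the copy in the level at position 1386 was not tested.

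By the call rule for methylation within a genotype (1-sided exact binomial tests against the library background, combined over libraries, adjusted p under 0.05, with 10 reads and 10% in every library), Eno1 position 1386 was the only glycolytic cytosine called in Dnmt2-/-. It had an adjusted p of 2.63e-110 there by the combined exact binomial tests. The site was named beforehand by its level in these data, so this call describes it and is no independent support. As a share, 1 of 2882 is near the 0.0283% called among all cytosines (387 of 1365927). In wild type 0 of 2629 were called, against 0.0212% of all (162 of 765735), because wild type replicate 3 had 3 reads at position 1386. Without that library the site was called in wild type too (adjusted p = 2.43e-50 by the combined exact binomial tests), and without wild type replicate 1 position 492 of Gpi1 was called instead.

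Genotypes were compared at cytosines that averaged at least 5% non-conversion and had 10 reads in every library, which left 16 glycolytic cytosines of 8193 and left out Eno1 position 1386. By the edgeR quasi-likelihood test 0 of the 16 were called, as were 0% of all. At an unadjusted p under 0.05 there was 1 of 16, against 2.47% of all. This was Gpi1 position 492, with 0 of 51, 0 of 30 and 2 of 71 reads non-converted in Dnmt2-/- libraries, against 1 of 36, 6 of 49 and 3 of 19 in wild-type libraries (0%, 0% and 2.82%, against 2.78%, 12.2% and 15.8%). Dnmt2-/- replicate 3 overlapped wild type replicate 1 (unadjusted p = 0.0155, edgeR adjusted p = 0.999).

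The other cytosines that led their references were low and uneven. Eno1 position 900, the highest with 10 reads throughout, stood at 6.06%, 10.7% and 11.5% in Dnmt2-/- libraries, against 7.14%, 18.9% and 4.17% in wild-type libraries. In the ATP-spending phase, Gpi1 position 139 averaged 4.96% ± 2.31 in Dnmt2-/- and 7.12% ± 6.20 in wild type, and Pfkl position 1502 averaged 5.75% ± 3.25 and 7.93% ± 4.95 (SD, n = 3 each). Aldoa position 113 of the main reference averaged 3.33% ± 5.77 and 6.67% ± 5.77, Aldoa position 131 of the lower reference 2.38% ± 4.12 and 3.03% ± 5.25, and Tpi1 position 1039 4.10% ± 3.78 and 6.51% ± 5.96. In the later steps, Gapdh position 270 averaged 2.52% ± 2.63 in Dnmt2-/- and 6.22% ± 3.85 in wild type, Pgk1 position 1430 2.57% ± 3.01 and 6.21% ± 1.86, and Pgam1 position 1823 6.52% ± 4.77 and 6.58% ± 4.43. Pkm position 1455 of the higher reference, the best covered at 279 to 1371 reads, averaged 2.32% ± 0.864 and 3.33% ± 1.18, and position 1497 of the lower one 6.10% ± 3.84 and 1.96% ± 1.70. In each of these the values of the genotypes overlapped.

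Non-conversion was also summed over whole references. Of 11 glycolytic references with 10 or more such cytosines, 0 were called between genotypes by the edgeR quasi-likelihood test, as were 0% of all 5036, and 0 had an unadjusted p under 0.05, against 2.44% of all. The log2 odds differences were positive in 10 of 11, with a median of 0.10, against a median of 0.13 and 78.4% positive over all references. With 1 library left out the glycolytic median was 0.015 (without wild type replicate 2) to 0.23 (without Dnmt2-/- replicate 3). Without Dnmt2-/- replicate 3, the library with the lowest background, 521 of 5049 references rose in Dnmt2-/- cells, among them Pgk1 (log2 odds difference 0.26, adjusted p = 0.0327 by edgeR) and the higher Pkm reference (0.29, adjusted p = 0.0234 by edgeR). The background itself was 1.77%, 1.76% and 1.42% in Dnmt2-/- libraries, against 1.59%, 1.45% and 1.50% in wild-type libraries.

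Pfkl lay above Gapdh in every library. Pfkl had 2.05%, 2.00% and 1.60% in Dnmt2-/- libraries, against 1.83%, 1.60% and 1.83% in wild-type libraries, and its mean exceeded that of 81.8% of the 5036 references. Gapdh had 1.20%, 1.52% and 1.22% in Dnmt2-/- libraries, against 1.01%, 1.06% and 1.49% in wild-type libraries, and exceeded 3.14% of the references. The higher Pkm reference had 1.84%, 1.80% and 1.45% in Dnmt2-/- libraries, against 1.62%, 1.40% and 1.48% in wild-type libraries. In each of these the groups overlapped. The lower Aldoa reference, with a summed coverage as low as 155 in a library, varied most, at 2.56%, 0.735% and 0.498% in Dnmt2-/- libraries, against 1.19%, 0.329% and 1.94% in wild-type libraries. The main one had 1.56%, 1.63% and 1.51% in Dnmt2-/- libraries, against 1.65%, 1.17% and 1.89% in wild-type libraries, and the lower Pkm reference 1.56%, 1.49% and 1.20%, against 1.61%, 1.47% and 1.15% in wild type. The remaining ones, Gpi1, Tpi1, Pgk1, Pgam1 and Eno1 averaged 1.49% to 1.79% in Dnmt2-/- and 1.46% to 1.66% in wild type.

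**Figure D5:**
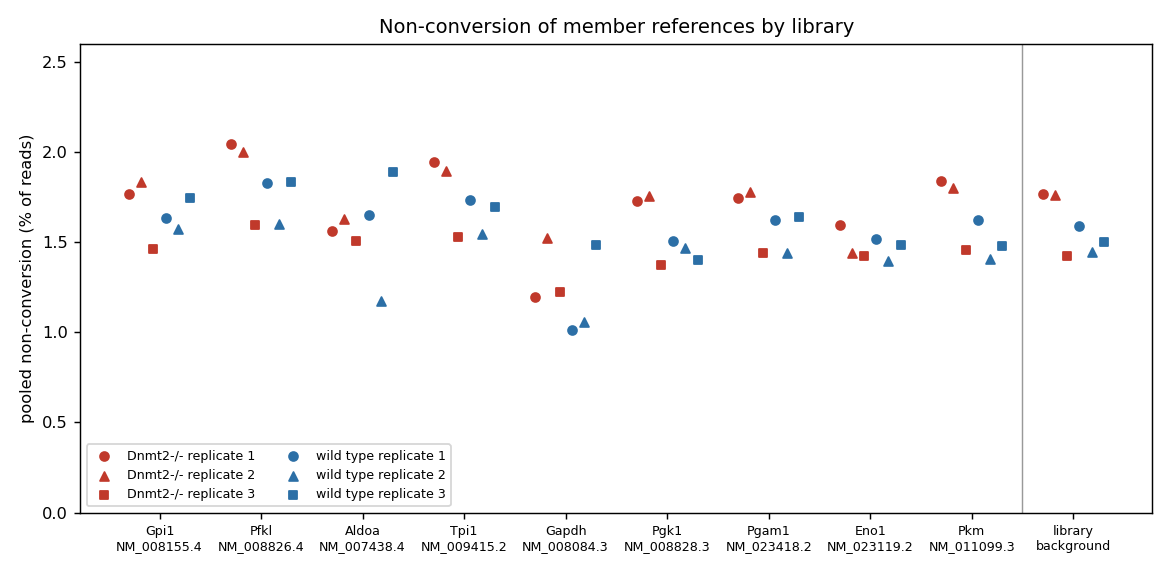
Non-conversion (%) over the cytosines of the 9 best covered glycolytic references, Dnmt2-/- libraries left of wild-type libraries, with the background of each library beside them. The library background is 1.42% to 1.77% in Dnmt2-/- and 1.45% to 1.59% in wild type, with Pfkl above it in every library and Gapdh below it in every library.

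Pooled over the 2628 glycolytic cytosines with 10 reads in every library, at a summed coverage of 231863 to 898060 per library, non-conversion was 1.79%, 1.79% and 1.45% in Dnmt2-/- libraries, against 1.61%, 1.47% and 1.60% in wild-type libraries. The means were 1.68% ± 0.195 and 1.56% ± 0.0809 (SD, n = 3 each), a difference of 0.117 percentage points that lay within the spread (exact permutation test, two-sided p = 0.4). The background of the libraries differed by 0.138 percentage points (exact p = 0.4). Taken above its own background, the pooled level was 0.0228, 0.0335 and 0.0297 percentage points in Dnmt2-/- libraries, against 0.0221, 0.0203 and 0.105 in wild-type libraries (exact p = 1).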

How the data were processed

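Comparisons used 6 libraries of the rRNA-depleted long fraction, and the small and undepleted fractions were not used here. Per the file headers, each deposited file gives a coverage, a count of reads per cytosine of a reference RNA that the authors did not normalize, and an unconversion ratio, a fraction of those reads. The authors used BSMAP and build mm9, per the submitters' processing notes. Neither versions nor filters appear in the sources used. The lowest listed coverage was 3, and unlisted cytosines were taken as 0 in coverage. The product of coverage and ratio was whole to within 8e-10 (tolerance 0.01) in all 20824445 entries, so non-converted read counts were recovered.

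Names came from a RefSeq table of GRCm38.p6 (15239 of 15330 references matched), never coordinates. Positions are those of the references.

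Levels were tested with limma 3.58.1 (trend) on log2(TMM-scaled mean coverage + 0.5) at a mean of 1 or more, a scale that understates changes of low references. Non-conversion was tested with edgeR 4.0.16 (R 4.3.3), as the interaction of genotype and conversion state with a term per library. The threshold was a Benjamini-Hochberg adjusted p of 0.05 over all features, and single values had exact permutation tests. Scripts were tested on simulated data. Background was the pooled non-conversion of cytosines with 10 reads and 10% or less. A listed cytosine had a median of 6 to 11 reads per library, which limits single sites.

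Members and lists were chosen with earlier results of these data known. Named were all member references, the cytosine of each with the highest mean at 10 reads throughout, every called cytosine, the 3 highest genes of each other metabolic list and the 3 references most alike. Sites named beyond this (Gpi1 position 492, Eno1b position 1359 and the neighbours of 1386) were chosen after their values were seen. Aldoc and Slc16a3 were named for an unadjusted p under 0.05. Eno1 position 1386 had been named beforehand, by its non-conversion in these data. Alternatives changed the pseudocount, filters, scaling, coverage minimum, level minimum, background, test, libraries and replicate block.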

Additional observations from a re-analysis of the deposited data

How the results depend on the processing

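No glycolytic reference passed the coverage test under any alternative run. Over all references the number called was 1 with cytosines listed in all 6 libraries and 0 to 1 when 1 library was left out (1 without Dnmt2-/- replicate 1). The median difference of the members stayed positive, 0.14 to 0.29 when 1 library was left out. Single signs did turn: Gapdh coverage was 0.0044 without both replicate 3 libraries. Eno1 coverage was 0.11 over cytosines listed in all 6 libraries, 0.066 with edgeR, 0.33 without both replicate 3 libraries and 0.29 together with Eno1b (chosen after seeing the data), and ran from -0.20 to 0.19 with 1 library left out. With 1 library left out, other coverage differences ran from 0.13 to 1.44 for Ldha, 0.33 to 0.85 for the main Aldoa reference, 0.068 to 0.28 for Pgam1, 0.29 to 0.57 for Pgk1, 0.23 to 0.54 for Tpi1, 0.02 to 0.18 for the higher Pkm reference, -0.32 to -0.089 for the lower one and -0.22 to -0.041 for Gapdh.

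Methylated glycolytic cytosines in Dnmt2-/- numbered 0 at a coverage of 20 or more, where position 1386 is not tested, and in wild type 0 to 1 with 1 library left out. The genotype test of cytosines called 27 with Fisher's exact test over the summed reads, a test blind to library spread, none of them glycolytic, and 0 to 1 with 1 library left out (1 without wild type replicate 3). For whole references it called 2 at a coverage of 5 or more, and 0 to 521 with 1 library left out (521 without Dnmt2-/- replicate 3; the cause was not tested). With 1 library left out, the log2 odds difference ran from -0.033 to 0.14 for Gpi1, -0.69 to 0.69 for the lower Aldoa reference, -0.15 to 0.21 for the main one, -0.031 to 0.061 for Eno1 and -0.15 to 0.064 for the lower Pkm reference. The lower Pkm reference stood at 0.13 at a coverage of 5 or more and 0.0018 with the replicate block. The pooled difference was 0.0603 to 0.23 percentage points.

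Same-numbered libraries correlated at 0.139, 0.0404 and 0.304 in their deviations from the genotype means (10949 references), and not every pair passed 0.1, so the numbers were not taken as pairs. The replicate 3 libraries did deviate together, at 0.304. Each correlated at -0.291 to -0.112 with the differently numbered libraries of the other genotype. Deviations within a genotype sum to 0, so these negative values follow in part from the 0.304 and add no support. With the replicate block 0 references were called for coverage (1186 at an unadjusted p under 0.05, 3 of them glycolytic), 0 cytosines and 0 references for non-conversion.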
